A study of Mus musculus with 2 samples.

Results

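Apoe, Cst7, Lpl, Trem2, Tyrobp, Axl, Spp1, Clec7a, Gpnmb and Fabp5, 10 genes known for their high expression in disease-associated microglia, were chosen by name and followed in single cells from the region of the cribriform plate of the mouse. Of these, 9 were measured, among 31053 genes in the feature list, and Clec7a was not analysed here. The cells came from 10-week-old female wild-type C57BL/6J mice, either with experimental autoimmune encephalomyelitis (EAE, an induced autoimmune inflammation of the central nervous system) or healthy, with 5 mice pooled into 1 sample of each kind. Cribriform plate, olfactory bulbs and some nasal mucosa were collected, and cells positive for podoplanin and CD31 and negative for CD45, the gate of lymphatic endothelium, were sorted. The deposited count matrix keeps the samples apart only by a barcode suffix, 1 or 2, and no source used here ties a suffix to EAE or to health. Values are therefore given for library 2 and library 1, ratios are library 2 over library 1, and a difference compares these libraries and not the conditions. There was 1 library on each side, so there was no replicate and no test. Intervals of levels, shares and ratios are exact 95% intervals that cover counting error only.

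Microglia are the resident macrophages of the brain. In models of neurodegeneration and demyelination, microglia near damage lower the genes of the resting state and express a programme of lysosomal, lipid and phagocytic genes, and such cells are called disease-associated microglia. The surface receptor TREM2 binds lipids and lipoproteins and signals through the adaptor TYROBP (DAP12) to the kinase SYK. An early step of the programme, which includes Apoe, can occur without TREM2, whereas the later step, which includes Lpl, Cst7 and Axl, needs it in mice.

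The stretches upstream of 4 members are shown because these members differed most in their ratios: Axl, Apoe and Cst7 had the highest and Trem2 the lowest. Each is the 250 bases before the gene's start in RefSeq (GRCm38.p6), 5′ to 3′ on the gene's strand. They lie at chr7:25788734-25788983 on the minus strand for Axl, at chr7:19699189-19699438 on the minus strand for Apoe, at chr2:150570165-150570414 on the plus strand for Cst7, and at chr17:48346151-48346400 on the plus strand for Trem2. For Apoe, RefSeq lists 3 starts, and the one nearest to most transcript starts of the GENCODE annotation was used. Capitals mark matches to the 4 motifs described after the sequences.
Axl: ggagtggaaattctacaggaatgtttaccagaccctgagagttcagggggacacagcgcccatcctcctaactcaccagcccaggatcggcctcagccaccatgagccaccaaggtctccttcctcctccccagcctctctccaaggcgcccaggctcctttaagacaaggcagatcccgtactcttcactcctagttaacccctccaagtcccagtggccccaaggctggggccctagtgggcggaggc
Apoe: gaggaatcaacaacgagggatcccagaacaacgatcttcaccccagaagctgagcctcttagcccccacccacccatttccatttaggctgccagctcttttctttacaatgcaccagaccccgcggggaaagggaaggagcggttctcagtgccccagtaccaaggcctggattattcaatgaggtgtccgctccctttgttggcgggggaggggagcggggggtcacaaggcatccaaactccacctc
Cst7: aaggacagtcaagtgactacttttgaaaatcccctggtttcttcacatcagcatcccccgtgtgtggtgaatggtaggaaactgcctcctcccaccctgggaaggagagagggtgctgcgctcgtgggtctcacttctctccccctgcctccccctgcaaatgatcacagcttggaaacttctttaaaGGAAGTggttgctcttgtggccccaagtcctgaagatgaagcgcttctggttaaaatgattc
Trem2: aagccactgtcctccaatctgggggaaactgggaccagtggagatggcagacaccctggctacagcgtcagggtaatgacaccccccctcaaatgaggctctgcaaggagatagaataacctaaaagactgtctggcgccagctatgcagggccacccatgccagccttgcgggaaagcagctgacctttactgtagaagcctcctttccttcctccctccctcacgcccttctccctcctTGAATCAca

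The motifs were searched by their letters on both strands, and no match overlapped another. They were the interferon-gamma site TTCNNNGAA, held by 7.02% of 32851 RefSeq promoter windows of the same length, the AP-1 site TGANTCA (6.75%), the E-box CACGTG (6.02%) and the ETS site GGAAGT (19.7%). Cst7 held GGAAGT, which began 62 bases before the start. Trem2 held TGAATCA 9 bases before the start. The windows of Axl, Apoe and Gpnmb held none of the 4, and that of Spp1 held GGAAGT, which began 111 bases before the start. Windows were found for 6 members.

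After cells with fewer than 200 genes or more than 20% mitochondrial UMIs (unique molecular identifiers, each standing for 1 captured transcript) were set aside, library 2 held 1922 cells and 20282053 UMIs, and library 1 held 3406 cells and 25766058 UMIs. The median cell had 9782.5 UMIs in library 2 and 7334 in library 1. Against the gate, most cells carried microglia transcripts. At least 5 of 7 microglia markers had a UMI in 85.1% of library 2 cells and 95.4% of library 1 cells. The libraries shared 8 barcode sequences, of which 7 were kept in both. Other transcripts also separated the libraries. The 25 immediate early and heat shock genes, which dissociation can induce, had a summed level of 27965 CPM (UMIs scaled to a common total, counts per 1e6) in library 2, against 71539 CPM in library 1, and the median mitochondrial share was 3.74% in library 2 and 1.54% in library 1. Markers of olfactory sensory neurons came to 543 CPM in library 2, against 103 CPM in library 1, those of olfactory ensheathing cells to 312 CPM in library 2, against 87.9 CPM in library 1, and those of monocytes to 79.7 CPM in library 2, against 13.5 CPM in library 1. The monocyte list had 1617 UMIs in library 2, of which Fn1 gave 135, Ccr2 12, Ly6c2 10 and Chil3 2, so most came from its other genes. In library 1, with 347 UMIs of the list, Fn1 gave 70, Ccr2 55, Ly6c2 4 and Chil3 4. Macrophage markers came to 28.7 CPM in library 2, against 92.6 CPM in library 1, and red blood cell markers to 0.641 CPM in library 2, against 323 CPM in library 1. Within the microglia-like clusters described further on, neuron markers came to 12.6 CPM in library 2, against 9.41 CPM in library 1, macrophage markers to 11.4 CPM in library 2, against 7.59 CPM in library 1, and ensheathing markers to 11.9 CPM in library 2, against 4.24 CPM in library 1. Larger gaps stayed there for monocyte markers, at 72.2 CPM in library 2 and 4.41 CPM in library 1, astrocyte markers, at 284 CPM in library 2 and 98.5 CPM in library 1, and dendritic cell markers, at 40.4 CPM in library 2 and 304 CPM in library 1. The dendritic list was mostly 1 gene, Fscn1. Over all kept cells Fscn1 gave 708 of the list's 788 UMIs in library 2 and 7245 of its 7391 in library 1. The astrocyte list had 6131 UMIs in all kept cells of library 2. Of these, Aldoc gave 367, Aldh1l1 156, Gfap 123, Aqp4 85, Gja1 68 and Agt 17, so most came from Slc1a3 and Slc1a2. In library 1, with 3108 UMIs of the list, Aldoc gave 190, Aqp4 135, Gja1 60, Aldh1l1 19, Gfap 9 and Agt 8. Of the lists, 5 of 6 tested neuron markers, 3 of 8 ensheathing markers and 1 of 4 monocyte markers were at least 2-fold higher in library 2, and 1 of 6 macrophage and 4 of 5 red blood cell markers at least 2-fold lower. Without cells that held at least 3 markers of another list, the monocyte, macrophage and dendritic cell lists aside, the log2 ratios were 3.11 for Axl, 2.71 for Apoe and 2.53 for Cst7, and with the immediate early and heat shock genes left out of the totals they were 2.99 for Axl, 2.54 for Apoe and 2.43 for Cst7. The second of these changes the totals alone, and the part of the monocyte and dendritic cell markers, and of immediate early genes within a cell, was not tested.

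Of the 9 measured members, 3 were at least 2-fold higher in library 2: the receptor kinase gene Axl, the apolipoprotein gene Apoe and the protease inhibitor gene Cst7. None was at least 2-fold lower. Across all 13891 genes with at least 20 UMIs over both libraries, 2.76% were at least 2-fold higher in library 2 and 1.92% at least 2-fold lower. Among the 7971 genes with a mean of 10 CPM or more, these shares were 4.47% and 3.24%. A gene counted as higher at a log2 ratio of 1 or more, with 10 CPM added to both levels, which understates the ratio of genes at low levels. The members' median log2 ratio was 0.68 and that of all genes 0.02, and the order-statistic interval of the members' median, -0.29 to 2.61, describes the spread over 9 chosen genes and not counting error. The members did not move together: Axl, Apoe and Cst7 stood at log2 ratios of 2.47 to 3.02, Fabp5 and Gpnmb at 0.96 and 0.68, and Spp1, Tyrobp, Lpl and Trem2 at -0.07 to -0.72. Of all genes, 28 had a higher ratio than Axl, 48 a higher one than Apoe and 55 a higher one than Cst7, whereas 578 of the 13891 had a lower one than Trem2. Sums over all kept cells do not separate a change in the make-up of the cells from a change of level within them, so the values within 1 class of cells follow further on.

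**Figure D1:**
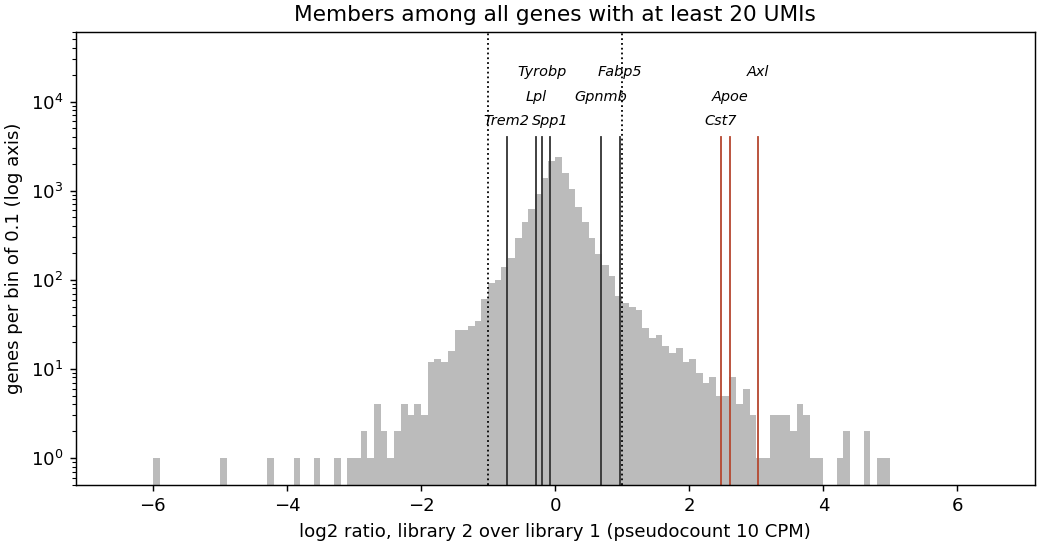
Log2 ratio of library 2 over library 1 (x axis, 10 CPM added) for all genes with at least 20 UMIs, as a histogram with a log y axis of genes per bin. Vertical lines mark the 9 members, red where the ratio is 1 or more, and dotted lines stand at -1 and 1: Axl, Apoe and Cst7 lie beyond 1 and the other members lie between the dotted lines.

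Among the members that carry or process lipid, Apoe encodes apolipoprotein E, the main lipid carrier secreted in the brain. It had 476695 UMIs or 23503 CPM in library 2 (interval 23437 to 23570) and 99246 UMIs or 3852 CPM in library 1 (3828 to 3876), a fold of 6.10 (6.06 to 6.14). Apoe alone took 2.35% of all UMIs of library 2 and 0.385% of those of library 1. An Apoe UMI was found in 98.2% of library 2 cells and 83.9% of library 1 cells, and after each cell was thinned to 1000 UMIs in 90.5% of library 2 cells and 56.6% of library 1 cells. Thinning left out 15 cells of library 2 and 87 of library 1 that had fewer UMIs. In library 1, 27.0% of the Apoe UMIs lay in 53 macrophage-like cells, at 54895 CPM, and library 2 had no cell in that cluster. Without that cluster the fold was 8.20 (8.14 to 8.27).

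Lpl, which encodes the lipase that frees fatty acids from lipoproteins, was 1.29-fold lower in library 2, short of the threshold. It had 28.9 CPM in library 2 (26.6 to 31.4; 587 UMIs) and 37.5 CPM in library 1 (35.1 to 39.9; 965 UMIs), a fold of 0.773 (0.696 to 0.857). Thinned cells with an Lpl UMI made up 1.99% of library 2 and 2.53% of library 1. A macrophage-like cell of library 1 alone held 93 of its Lpl UMIs.

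Fabp5, a carrier of fatty acids inside cells, had 36.4 CPM in library 2 (33.9 to 39.2; 739 UMIs) and 13.9 CPM in library 1 (12.5 to 15.4; 357 UMIs). The fold was 2.63 (2.31 to 2.99), but with 10 CPM added the log2 ratio of 0.96 stayed just under the threshold. A Fabp5 UMI was present in 11.9% of library 2 cells and 5.20% of library 1 cells, and after thinning in 2.67% of library 2 and 0.964% of library 1. Few cells carried much of it, since the 1% of cells with most Fabp5 held 40.1% of its UMIs in library 2 and 56.0% in library 1. Fabp5 has a processed pseudogene, so reads of the pair may have been shared and its level is uncertain.

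Trem2 and Tyrobp, the receptor and its adaptor, were high in both libraries and were not higher in library 2. Trem2 had 1632 CPM in library 2 (1614 to 1649; 33091 UMIs) and 2688 CPM in library 1 (2668 to 2708; 69251 UMIs). It was 1.65-fold lower in library 2, with a log2 ratio of -0.72, the lowest of the members. After thinning, a Trem2 UMI was found in 76.2% of library 2 cells and 89.9% of library 1 cells. Tyrobp had 2116 CPM in library 2 (2096 to 2136) and 2418 CPM in library 1 (2399 to 2437), which was 1.14-fold lower in library 2. Thinned cells with Tyrobp made up 83.6% of library 2 and 87.2% of library 1.

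Axl encodes a TAM receptor kinase that binds GAS6 and takes part in the uptake of dying cells. It had 203 CPM in library 2 (197 to 210; 4125 UMIs) and 16.4 CPM in library 1 (14.9 to 18.0; 422 UMIs), a fold of 12.4 (11.2 to 13.8). An Axl UMI was found in 72.9% of library 2 cells and 7.28% of library 1 cells, or after thinning in 17.3% of library 2 and 1.54% of library 1. Of the library 1 UMIs, 20.4% came from macrophage-like cells, and without them the fold was 15.3 (13.7 to 17.2).

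Cst7 encodes cystatin F, an inhibitor of lysosomal cathepsins. It had 204 CPM in library 2 (197 to 210; 4130 UMIs) and 28.5 CPM in library 1 (26.5 to 30.6; 734 UMIs), a fold of 7.15 (6.61 to 7.74). Cells with a Cst7 UMI made up 61.0% of library 2 and 12.2% of library 1, or after thinning 15.2% of library 2 and 2.23% of library 1. The macrophage-like cells of library 1 had 4.10 CPM of Cst7 (2 UMIs), where they had 176 CPM of Axl.

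The secreted phosphoprotein gene Spp1 (osteopontin) and the lysosomal glycoprotein gene Gpnmb, both hallmarks of foamy phagocytes, were sparse. Spp1 had 6.56 CPM in library 2 (5.49 to 7.77; 133 UMIs) and 7.37 CPM in library 1 (6.36 to 8.50; 190 UMIs), a fold of 0.889 whose interval of 0.707 to 1.12 took in 1. A Spp1 UMI was seen in 3.17% of library 2 cells and 2.38% of library 1 cells. Gpnmb had 6.51 CPM in library 2 (5.45 to 7.72; 132 UMIs) and 0.272 CPM in library 1 (0.109 to 0.560; 7 UMIs), a ratio of 24.0 with an interval of 11.3 to 60.7. That ratio rests on few cells: 31 cells of library 2 (1.61%) and 4 of library 1 (0.117%) had a Gpnmb UMI, and 4 cells of library 2 held 62.1% of its UMIs. After thinning, Gpnmb was found in 0.472% of library 2 cells and in 0 of 3319 library 1 cells, which allows a share of up to 0.0904% (that of 3 cells), or 0.111% by the exact interval.

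**Figure D2:**
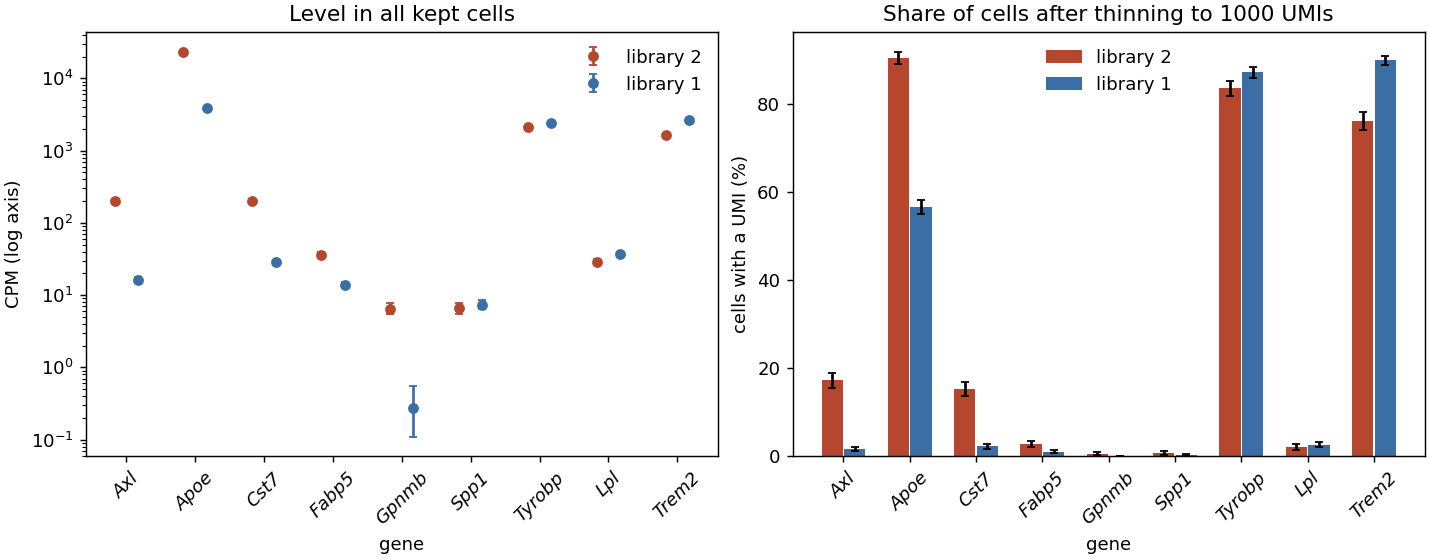
Left, CPM of each member in all kept cells (log axis) in library 2 (red) and library 1 (blue), with exact Poisson intervals; right, the share of cells with a UMI after thinning to 1000 UMIs, with exact binomial intervals. Axl, Apoe and Cst7 stand apart between the libraries on both measures, Trem2 and Tyrobp are high in both, and Spp1, Lpl and Gpnmb are in few cells of either.

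The same pattern was seen within microglia-like clusters, which held 1619 cells of library 2 (84.2%) and 2142 of library 1 (62.9%). Cells were clustered without the members or the related gene lists. Different clusters made up the class in each library: clusters 3, 6, 8 and 9 in library 2, and clusters 1, 2 and 5 in library 1, which had only 23 cells in the first set. Clusters held by 1 library may reflect that library rather than a cell type. A further 10.4% of library 2 cells and 33.9% of library 1 cells were in clusters left unnamed. Microglia markers were high in most of these: the largest, clusters 4 and 7, held 589 and 396 cells of library 1, and 6 and 0 of library 2, and the 7 markers summed to 21996 CPM in cluster 4 and 17948 CPM in cluster 7. Within the microglia-like clusters, 4 of the 9 members were at least 2-fold higher in library 2 and 0 lower, against 2.97% higher and 2.36% lower of 12008 genes. Apoe had 24518 CPM in library 2 and 2602 CPM in library 1, a fold of 9.42 (9.33 to 9.52). Axl had 213 CPM in library 2 and 13.8 CPM in library 1, 15.4-fold apart (13.5 to 17.6). Cst7 stood at 205 CPM in library 2 and 30.1 CPM in library 1, 6.81-fold apart. Fabp5 was the member that joined them, at 30.4 CPM in library 2, against 8.18 CPM in library 1, and a log2 ratio of 1.15. Trem2 again was lower in library 2, at 1717 CPM, against 2723 CPM in library 1, as was Tyrobp at 2193 CPM, against 2424 CPM in library 1. Lpl had 28.4 CPM in library 2 and 36.1 CPM in library 1, and Spp1 6.37 CPM in library 2 and 7.76 CPM in library 1.

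The median microglia-like cell of library 2 had 17031 CPM of Apoe and that of library 1 had 844 CPM. The ranges met, since 10% of library 2 cells lay under 1515 CPM and 10% of library 1 cells above 5408 CPM. Axl had a median of 177 CPM per cell in library 2 and 0 in library 1, and Cst7 108 CPM in library 2 and 0 in library 1. Trem2 had a median of 1735 CPM per cell in library 2 and 2638 CPM in library 1, with much overlap: the middle part of the cells, from the lower to the upper quartile, ran from 1244 to 2202 CPM in library 2 and from 2033 to 3336 CPM in library 1.

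Transcripts free in the suspension, or doublets, can give UMIs in cells that do not make them, and neither was measured here. The 37 sensory-neuron-like cells of library 2 are given as a comparison. They had 163 CPM of Apoe, with a UMI in 81.1% of cells at full depth and 8.11% after thinning, so a bare Apoe UMI at full depth is not read as expression. The microglia-like cells of library 2 had an Apoe UMI in 92.8% of thinned cells, and those of library 1 in 55.1%. The median depth was 11409 UMIs in the sensory-neuron-like cluster. The neuron-like cells of library 2 had 8.47 CPM of Trem2, 2.12 CPM of Tyrobp and no UMI of Axl, Cst7, Lpl, Spp1 or Gpnmb. A count of 0 there allows up to 6.35 CPM (that of 3 UMIs), or 7.81 CPM by the exact interval. Fabp5 had 86.8 CPM (41 UMIs) in these neuron-like cells, above its summed level of 30.4 CPM in the microglia-like cells of library 2. In library 1 only 7 cells fell in this cluster, with 72.4 CPM of Apoe.

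Among the microglia-like clusters of library 2, cluster 8 stood out. Its leading genes were the chemokine gene Cxcl9, the itaconate-producing enzyme gene Acod1 and the chemokine gene Ccl5. There Cst7 reached 368 CPM (347 to 389), against 140 CPM in cluster 6, the lowest. Axl had 250 CPM in cluster 8 and between 195 and 232 CPM in the other 3. Lpl had 49.0 CPM in cluster 8, which was 2.45-fold its level in cluster 6. Apoe and Trem2 went the other way, being lowest in cluster 8, at 17269 and 1165 CPM, and highest in cluster 3, at 26478 and 1920 CPM. Cluster 3 was led by genes such as C4b, Saa3, Apoc1 and H2-Eb1. Between clusters of 1 library, Apoe varied 1.53-fold in library 2 and 1.60-fold in library 1, and the lowest Apoe level of a microglia-like cluster in library 2 was above the highest in library 1, 3091 CPM in cluster 5. The same held for Axl, with 195 CPM as the lowest in library 2 and 17.1 CPM as the highest in library 1, and for Cst7, with 140 CPM in library 2 and 36.1 CPM in library 1. For Trem2 the order was reversed, the highest in library 2 (1920 CPM) lying under the lowest in library 1 (2364 CPM). These ranges leave out the unnamed clusters. Of those in library 1, clusters 4 and 7 had 3379 and 2018 CPM of Apoe. Unnamed cluster 17, with 31 cells of library 1 and led by Folr2 and Mrc1, had 18766 CPM of Apoe, above cluster 8 of library 2. The microglia-like clusters of a library share that library and are not replicates.

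Outside the microglia-like clusters, the dividing cells of cluster 12, led by Birc5, Mki67 and Top2a, had 13241 CPM of Apoe in library 2 and 2130 CPM in library 1, and 212 CPM of Axl in library 2 and 27.0 CPM in library 1. The ensheathing-like cells of cluster 11 had 25946 CPM of Apoe in library 2 and 8542 CPM in library 1, and microglia markers summed to 9144 CPM there, so these barcodes also carried microglia transcripts. Cluster 10, unnamed because its leading genes belong to other blood lineages, had the highest Cst7 of any cluster, 498 CPM in library 2, against 117 CPM in library 1. It also held the highest Fabp5, 158 CPM in library 2 and 351 CPM in library 1, and the highest Spp1, 176 CPM, in library 1, against 14.2 CPM in library 2. The Fabp5 levels, and the Spp1 level of library 1, rest largely on single cells. In library 2, 1 cell held 48 of the cluster's 89 Fabp5 UMIs. In library 1, 1 cell held 28 of its 36 Fabp5 UMIs and 1 cell 9 of its 18 Spp1 UMIs. Cluster 10 had 107 cells of library 2 and 23 of library 1.

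**Figure D3:**
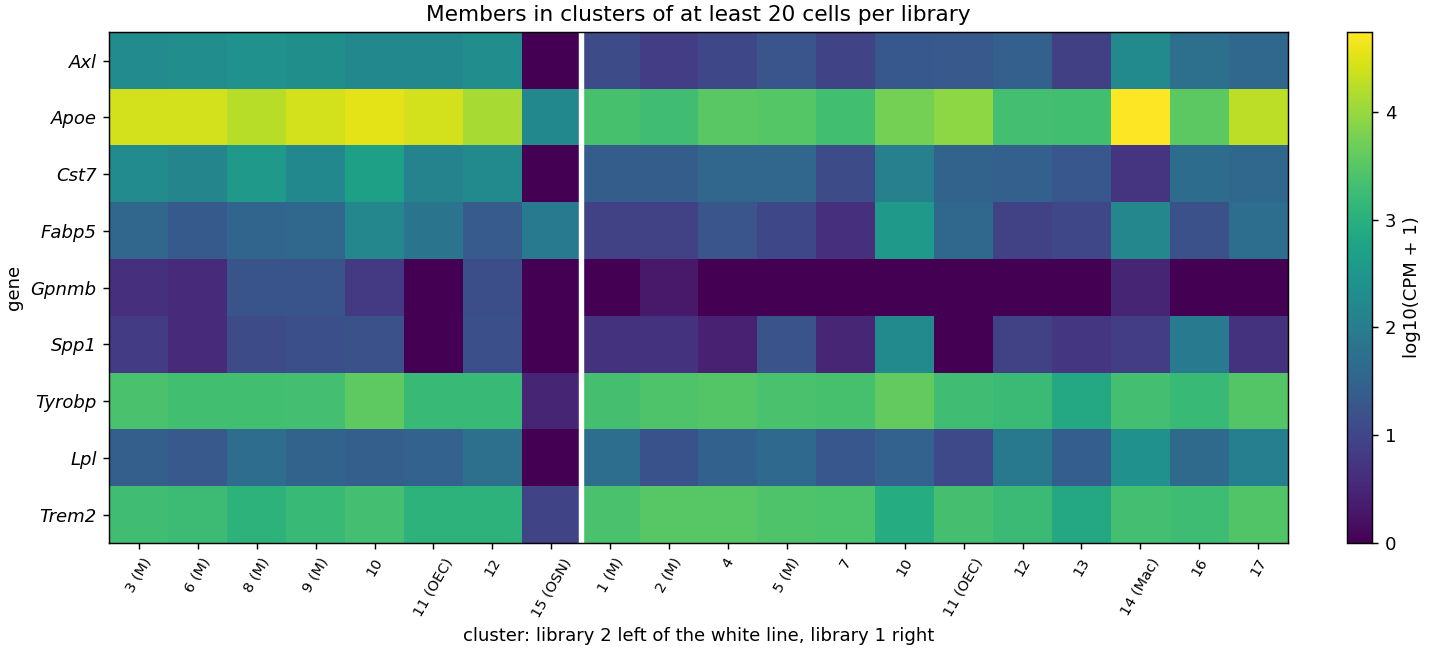
Level of each member (rows) as log10(CPM + 1) by colour in every cluster with at least 20 cells of a library (columns), library 2 left of the white line and library 1 right of it. M, Mac, OEC and OSN mark microglia-like, macrophage-like, ensheathing-like and sensory-neuron-like clusters; Axl, Apoe and Cst7 are brighter in most library 2 columns, Trem2 and Tyrobp are bright in nearly all columns, and the sensory-neuron-like column is dark for all but Apoe and Fabp5.

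Cells of library 2 held more members at once. In microglia-like cells thinned to 1000 UMIs, a mean of 2.95 members had a UMI in library 2 and 2.41 in library 1. This mean is the sum of the members' single shares of cells, so it is not a separate result. At least 4 members were found in 22.4% of library 2 cells and 4.2% of library 1 cells, and at least 5 in 3.03% of library 2 and 0.467% of library 1. In library 2, Apoe and Axl were found together in 17.2% of cells, where the product of their shares is 16.8%, and Apoe and Cst7 in 13.8%, equal to the product. Axl and Cst7 were found together in 3.52% of library 2 cells, where the product is 2.69%. Members were weakly correlated over single cells: the Pearson r of log-normalised values had a median of 0.08 over 21 pairs in library 2 (-0.12 to 0.24) and 0.15 over 15 pairs in library 1 (0.02 to 0.30). Cells of a library share its depth and preparation, and r is given as a description.

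**Figure D4:**
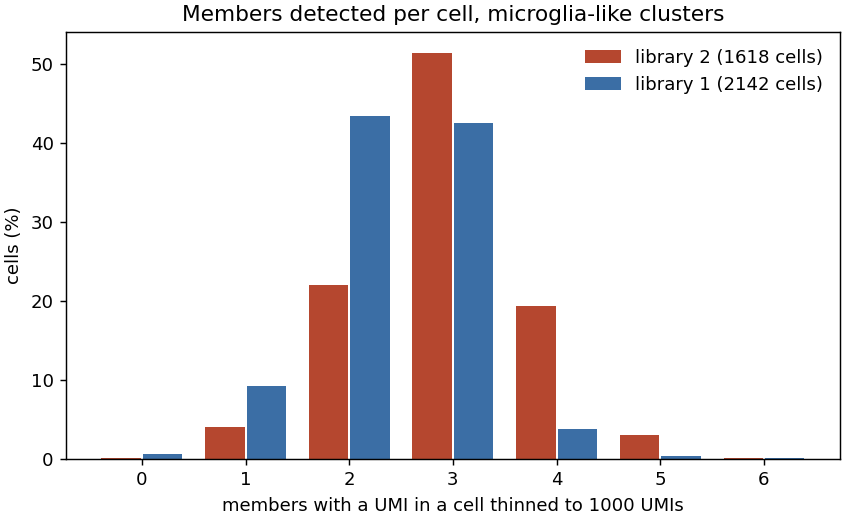
Share of microglia-like cells (y axis, %) by the number of members with a UMI after thinning to 1000 UMIs (x axis), in library 2 (red) and library 1 (blue). Most library 2 cells held 3 members, and those with 4 or more made up 22.4% of library 2 and 4.2% of library 1.

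The genes most like each member over microglia-like cells, by r, were taken among genes with a UMI in at least 5% of the cells, over 1619 cells in library 2 and 2142 in library 1. Apoe varied most closely with the cathepsin gene Ctsb (r = 0.38), Lyz2 (0.32) and Cd63 (0.31) in library 2, and with Lyz2 (0.42), Cd63 (0.29) and the cathepsin gene Ctss (0.27) in library 1. For Trem2 the closest gene was the cathepsin gene Ctsd in both, at r = 0.51 in library 2 and 0.46 in library 1. Tyrobp was closest to Itm2b (0.42) in library 2 and to the cystatin gene Cst3 (0.45) in library 1, with complement C1q genes second in each. Cst7 was closest to Cxcl9 (0.36), Ly6i (0.33) and Ccl5 (0.32) in library 2, and to Ctsz (0.26), Ctsb (0.26) and Lyz2 (0.24) in library 1. Axl was closest to Cybb (0.20), Apoe (0.19) and Ly6a (0.18) in library 2. In library 1 Axl was closest to the interferon-induced genes Ifi27l2a (0.25), Ifitm3 (0.24) and Ifi204 (0.23). Lpl was closest to Cybb (0.22) and Lgals3 (0.21) in library 2, and to Apoe (0.22) and Ctsb (0.22) in library 1. Fabp5 was closest to the galectin gene Lgals3 (0.40) in library 2. Spp1 and Gpnmb in both libraries, and Fabp5 in library 1, were in under 5% of cells and were not compared.

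Other genes of the disease-associated programme were also split. Of 7 early genes besides the members, 2 were at least 2-fold higher in library 2 and 0 lower, with a median log2 ratio of 0.66. These were the MHC class I genes H2-D1, at 6136 CPM in library 2 and 1744 CPM in library 1, and B2m, at 5191 CPM in library 2 and 1746 CPM in library 1. The most abundant, the cathepsin gene Ctsd, had 7406 CPM in library 2 and 8541 CPM in library 1, and Ctsb had 3886 CPM in library 2 and 2088 CPM in library 1. Of 24 later genes besides the members, 6 were higher and 3 lower, with a median of 0.05. The NADPH oxidase gene Cybb was 10.7-fold higher in library 2, at 191 CPM, against 17.9 CPM in library 1, the integrin gene Itgax 7.34-fold and the surface antigen gene Cd52 5.22-fold. Cox6a2, Lgals3 and Lilrb4a were the other 3, at log2 ratios of 1.20 to 1.43. The 3 lower genes were Ccl6, Ank and Serpine2, at -1.05 to -1.26.

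Genes of the resting state were lower in library 2. Of 20 homeostatic genes, 10 were at least 2-fold lower and 0 higher, with a median log2 ratio of -1.0. The purinergic receptor gene P2ry12 had 392 CPM in library 2 and 1447 CPM in library 1, the fractalkine receptor gene Cx3cr1 1308 CPM in library 2 and 2135 CPM in library 1, and Tmem119 808 CPM in library 2 and 1216 CPM in library 1. The Fc receptor-like gene Fcrls was 34.4-fold lower, at 73.6 CPM in library 2 and 2527 CPM in library 1. Cst3 had 9394 CPM in library 2 and 45032 CPM in library 1. Sall1, at a log2 ratio of 0.09, was the only gene of the list above 0. The 7 microglia markers that named the clusters are all among these 20 genes.

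Most genes next to the members in signalling were less than 2-fold apart. Of 19 partners of TREM2, TYROBP and related receptors, 1 was at least 2-fold higher in library 2, Treml2, at 49.0 CPM, against 10.0 CPM in library 1, and the median log2 ratio was -0.03. The kinase gene Syk had 69.8 CPM in library 2 and 85.5 CPM in library 1, the phospholipase gene Plcg2 70.6 CPM in library 2 and 71.0 CPM in library 1, and the adaptor gene Card9 34.5 CPM in library 2 and 35.6 CPM in library 1. Of 11 genes of the TAM receptors and of osteopontin, 1 was higher, the osteopontin receptor gene Cd44, at 29.1 CPM in library 2 and 3.92 CPM in library 1. The integrin genes Itga9, at 10.9 CPM in library 2 and 30.3 CPM in library 1, and Itgb3, at 3.50 CPM in library 2 and 9.94 CPM in library 1, were 2.78-fold and 2.84-fold lower in library 2, but with 10 CPM added their log2 ratios of -0.95 and -0.56 did not reach the threshold. The AXL ligand gene Gas6 had 136 CPM in library 2 and 199 CPM in library 1, Pros1, a ligand of related TAM receptors, 137 CPM in library 2 and 157 CPM in library 1, and the sister receptor gene Mertk 340 CPM in library 2 and 334 CPM in library 1.

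Of 23 other genes of lipid handling, 3 were at least 2-fold higher in library 2, with a median of 0.10. Apoc1, an apolipoprotein gene that neighbours Apoe in the genome, had 106 CPM in library 2 and 8.50 CPM in library 1. Apoc4, from the same gene cluster, had 14.7 CPM in library 2 and 0.388 CPM in library 1, where it had 10 UMIs. The fatty acid receptor gene Cd36 had 59.4 CPM in library 2 and 4.04 CPM in library 1. The cholesterol exporter gene Abca1 did not differ to that extent, at 194 CPM in library 2 and 185 CPM in library 1. The immediate early and heat shock genes were 0 higher and 15 lower of 25, with a median of -1.19. Like the other lists, the 14 interferon and MHC genes were chosen with earlier results of these data known. Of these 14, 13 were higher and 0 lower, against 2.76% higher and 1.92% lower of all 13891 genes. Their median was 3.30, and together they had 24243 CPM in library 2 and 2748 CPM in library 1. The chemokine gene Cxcl10 was the exception, at 0.90. Most genes of that list had larger log2 ratios than Axl.

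**Figure D5:**
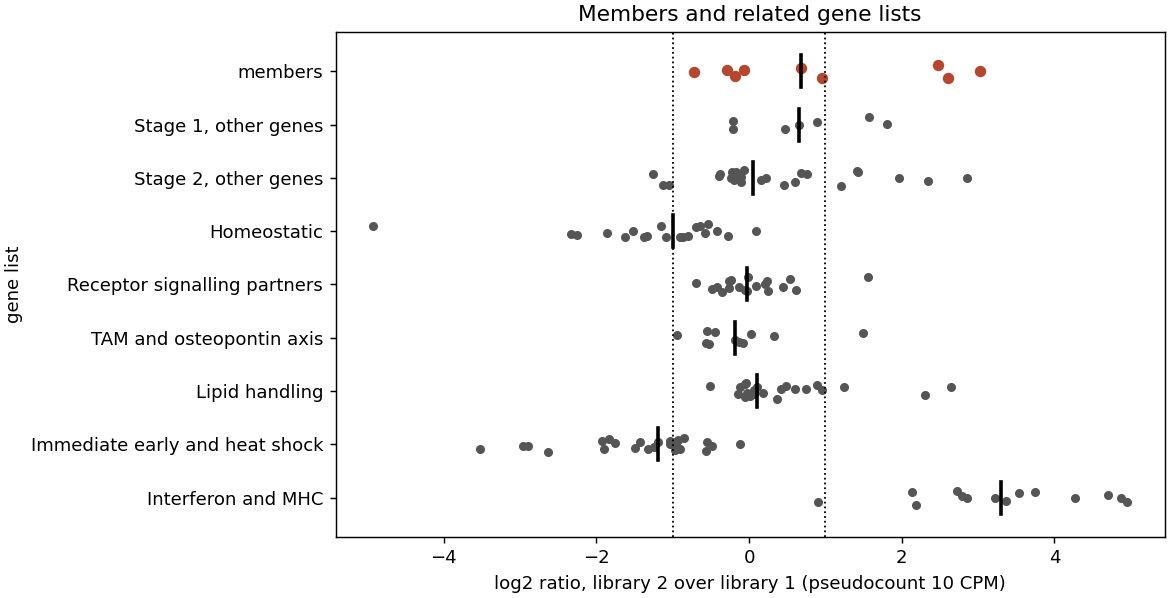
Log2 ratio of library 2 over library 1 (x axis, 10 CPM added) of each gene of the members (red) and of 8 related lists (grey), with the median as a black bar and dotted lines at -1 and 1. The members spread from -0.72 to 3.02, the homeostatic and immediate early genes lie mostly below 0, and the interferon and MHC genes lie to the right of most members.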

How the data were processed

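The labels' protocols describe mechanical dissociation and staining for podoplanin, CD31, CD45 and a viability dye before the sort. The deposited matrix holds raw UMI counts, whole numbers per gene and barcode, and was written by Cell Ranger 3.1.0, per the file headers. UMI-tools and bcl2fastq are listed, with no role, in the submitters' processing notes. The sources used here give neither the genome build nor whether the joined libraries were brought to equal depth. The matrix holds 47541728 UMIs in 6272 barcodes.

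All further values were computed here with Scanpy 1.11.5 and igraph 0.11.9 for clustering and with NumPy 2.4.6, pandas 2.3.3 and SciPy 1.17.1 for the rest, under Python 3.11.15. UMIs were summed per library or cluster and divided by the total (CPM, exact Poisson intervals), ratios have exact conditional binomial intervals, and shares of cells exact binomial intervals. Where a count was 0, the value that 3 counts would give is stated. Cells were clustered on 2000 variable genes, leaving out the members, the 8 lists and mitochondrial genes, with 30 principal components, 15 neighbours and Leiden resolution 1. No doublet caller was run, so doublets may remain. Cluster names follow a rule written after the clusters were seen: microglia-like clusters had at least 5 of 7 markers at 100 CPM, no other marker list with more genes among the 10 highest folds than the microglia list, and no dividing-cell or other lineage genes there. Cluster 7 stayed unnamed because its 10 highest folds held Fscn1 of the dendritic list but none of the microglia list, and cluster 4 because they held haemoglobin genes. The ratio intervals were tried on simulated counts that held counting error alone, so that trial says nothing of the spread between cells. Alternatives for cells, totals, pseudocount and thresholds were tried.

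The members and lists were chosen with earlier results of these data known. Genes named beside the members are examples from 3 sets. Per list these are the 2 highest in CPM and the 3 farthest from a log2 ratio of 0 among genes with at least 20 UMIs, per member the 3 most correlated genes, and always Gas6, Pros1, Mertk, Syk, Plcg2, Card9, P2ry12, Tmem119 and Cx3cr1. Cox6a2, Lgals3 and Lilrb4a among the later genes, Ccl6, Ank, Serpine2, Sall1 and Cxcl10, and cluster-leading genes were named after their values were seen. EAE was not compared with health because no source maps the suffixes. Clec7a was not analysed here.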

Additional observations from a re-analysis of the deposited data

How the results depend on the processing

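No paired analysis was possible because no source ties a barcode suffix to a sample and there is 1 library on each side. Each member's ratio was recomputed under 16 alternatives (15 for Gpnmb, which had too few UMIs in thinned cells). Of these, 1 dropped the minimum of 20 UMIs and could not change a member's ratio, since every measured member passed that minimum. Axl, Apoe and Cst7 were at least 2-fold higher in library 2 under all alternatives, at log2 ratios of 2.96 to 3.56, 2.54 to 3.23 and 2.41 to 2.79. Trem2 stayed between -0.79 and -0.60. The count of higher members was 5 with 1 CPM added in place of 10, and 5 at a fold of 1.5, in both cases by Fabp5 and Gpnmb. At 1.5-fold 1 member, Trem2, was lower. The share of all genes called was not computed for either setting, so these counts are not read as a result about the members. Under the other alternatives 3 or 4 members were higher and 0 lower. The fourth was Fabp5, at 0.91 to 1.33. Gpnmb ranged from 0.08 without its top 1% of cells to 2.56 with 1 CPM added, and Spp1 from -0.82 to 0.29, so neither has a settled size. Leaving out the shared barcodes, the macrophage-like cluster or the library 1 cells in library 2's clusters, 3 alternatives chosen after seeing the data, ended no call. Depth limits Spp1, with 133 UMIs in library 2 and 190 in library 1, and Gpnmb, with 132 in library 2 and 7 in library 1.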

Other observations

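The microglia-like clusters held by library 2 contained 23 library 1 cells. These cells had 14722 CPM of Apoe, with a median of 3423 CPM per cell, while the other library 1 cells of microglia-like clusters had 2390 CPM and a median of 836 CPM. The most Apoe-rich of the 23 held 1688 of their 4289 Apoe UMIs. They also had 172 CPM of Cst7 and 148 CPM of Axl, where the other 2119 cells had 27.7 CPM and 11.5 CPM. The homeostatic gene Fcrls stood at 1294 CPM in the 23 cells, at 78.3 CPM in the library 2 cells of the same clusters and at 2561 CPM in the other library 1 cells. The cells were picked out by their cluster, so the values are a description.

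The 4 library 2 cells richest in Gpnmb, with 35, 23, 12 and 12 UMIs of it, all held Apoe, Cst7, Trem2 and Tyrobp UMIs and differed in the rest. The cell with 35 Gpnmb UMIs had 31 Apoe and 5 Axl UMIs and none of Lpl, Spp1 or Fabp5. The cell with 23 had 760 Apoe, 20 Cst7, 17 Fabp5 and 5 Lpl UMIs. Of the 2 cells with 12, the first lay in the dividing cluster 12, with 1660 Apoe and 11 Fabp5 UMIs, and the other had 995 Apoe, 18 Fabp5 and 4 Spp1 UMIs.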
